A study of Mus musculus with 9 samples.

Results

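Linker histones (H1) sit on the DNA that enters and leaves a nucleosome and help chromatin fold. The mouse has replication-dependent subtypes (H1f1 to H1f5), whose genes lie in the histone cluster and whose mRNAs classically end in a stem-loop with no poly(A) tail and are made in S phase. It also has replacement subtypes (H1f0 and H1f10), which are made outside S phase from polyadenylated mRNAs, H1f0 being known for its accumulation in differentiated, non-dividing cells. The 7 somatic genes H1f0, H1f1, H1f2, H1f3, H1f4, H1f5 and H1f10 were taken by name from the 46078 genes measured. The family was looked at because H1f2 had stood out as higher in both mutants than in WT. For H1f2 the differences from WT are therefore a description with no test, while the other 6 genes were not chosen by their values.

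Whole pancreas from mice aged 8 weeks was sequenced as polyA-selected, strand-specific RNA in 9 libraries, each from 1 animal, with 3 animals per group. The groups were wild-type littermates (WT), mice with an allele labelled Snd1 KI (Snd1_KI) and mice with an allele labelled S6k2 RK (S6k2_RK). Each mutant was compared with the same 3 WT animals. A difference seen in both mutants is therefore not independent evidence from each, for any gene given here. Snd1 encodes a protein whose Tudor domain binds methylated arginine, S6k2 is a kinase of the mTOR pathway, and the title of the study concerns recognition of methylated S6K2 by SND1. The strain, the sex, the base changes and whether the WT animals were littermates of both lines are not given in the sources used here. The libraries had 13461427 to 21034501 gene-assigned reads. Every marker gene of acinar, ductal and islet cells had a read in at least 1 library, a weak check that the markers of all other cell types listed also passed. In WT the summed acinar markers had a mean of 3020450 normalized counts (explained in the next paragraph), the islet markers 49979 and the ductal markers 1503.

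Of the 7 genes, 5 had reads in every library, but only H1f0 and H1f2 at an appreciable level. Values are normalized counts, that is, reads divided by 1 scaling factor per library, and 1 read equals between 0.774 and 1.34 of them. Over the 9 libraries the mean was 1674 for H1f0, which was rank 252 of all genes, and 386 for H1f2, rank 1424. H1f4 had a mean of 10.6 (99 reads in all), H1f3 5.86 (54 reads) and H1f10 3.59 (33 reads). H1f5 had 2 reads, both in S6k2_RK replicate 1, and H1f1 had 1 read, in Snd1_KI replicate 2. The testis- and oocyte-specific genes H1f6, H1f7, H1f8 and H1f9 had no read in any library, which allows up to 0.0209 RPM (reads per 1000000 assigned reads; 3 reads of all libraries together, counting error only). A mean of at least 10 was needed for a test, and H1f0, H1f2 and H1f4 reached it.

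What the transcript models share is shown first, because polyA selection keeps only tailed RNA. The histone stem-loop was searched on the transcript strand as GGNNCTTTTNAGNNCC, which 98 of 58797 coding transcripts of GENCODE mouse release 21 hold (0.167%). It was found in the models of H1f2, H1f3 and H1f4, and is printed 5′ to 3′ with the matched letters in capitals and 5 flanking bases on either side.

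H1f2: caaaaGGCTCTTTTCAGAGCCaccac

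H1f3: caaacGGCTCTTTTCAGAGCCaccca

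H1f4: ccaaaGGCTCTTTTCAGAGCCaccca

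The capitals are the same in the 3 genes. They begin 25 bases after the stop codon in H1f2, 32 in H1f3 and 41 in H1f4, and in each gene the annotated model runs on past them, by 840, 4884 and 1153 bases. Among these 3, only the H1f2 model has a poly(A) signal (AATAAA or ATTAAA) in its last 50 bases, an aataaa 26 bases from the end. Such a signal is in that window in 50.2% of all coding transcripts. The replacement genes H1f0 and H1f10 have no stem-loop letters and an aataaa 22 and 21 bases from their ends. H1f1 stops 48 bases after its stop codon and H1f5 at the stop codon, with neither motif in the model. These are annotated ends, and the ends of the sequenced RNA were not measured here.

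**Figure D1:**
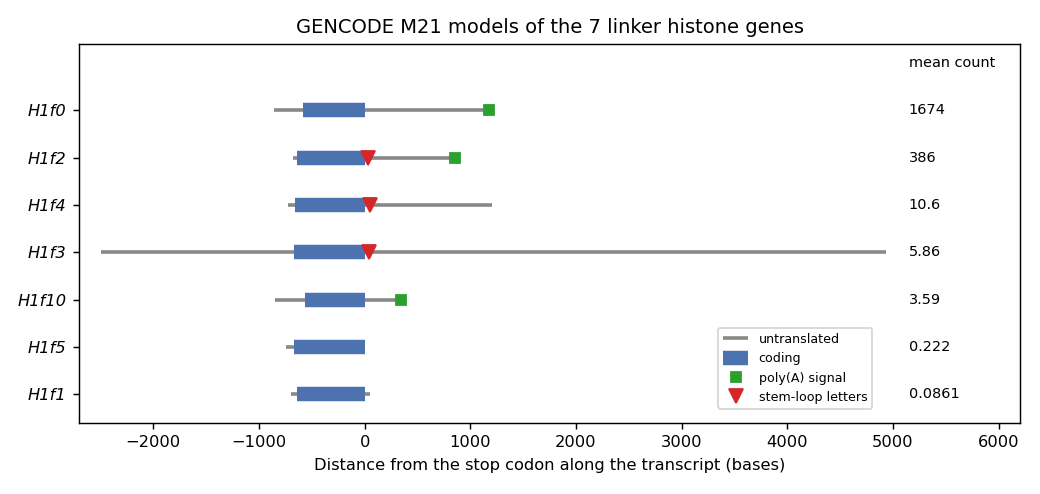
Transcript models of the 7 genes, aligned at the stop codon (x axis, distance along the transcript in bases), with the mean normalized count over 9 libraries at the right. Triangles mark the stem-loop letters of H1f2, H1f3 and H1f4, and squares the poly(A) signal of H1f0, H1f2 and H1f10; the model of H1f2 is the one that holds both.

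All 7 genes have a single exon in GENCODE release 21 on GRCm38. The 5 cluster genes lie on chromosome 13: H1f2 at 23738808 to 23740367 on the + strand, H1f3 at 23553262 to 23560686 (+), H1f4 at 23620629 to 23622558 (-), H1f1 at 23763666 to 23764406 (+) and H1f5 at 21779883 to 21780625 (-). H1f0 lies on chromosome 15 at 79028450 to 79030504 (+), and H1f10 on chromosome 6 at 87980421 to 87981637 (-). The longest stretch shared letter for letter was 149 bases between H1f2 and H1f3, 146 between H1f2 and H1f4 and 122 between H1f3 and H1f4. Reads were 150 bases long, so no full-length read matches both genes of a pair letter for letter. Shortened reads, or reads placed with mismatches, could match both. Their division depends on how the authors treated reads with several matches. H1f0 shared at most 17 bases with any other member. H1f4 overlaps 496 bases of H2bc6, an H2B gene on the same strand, and the antisense genes Gm49544 and Gm5577 overlap H1f0 by 163 bases and H1f10 by 755.

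The promoters also split the family. In the 250 bases before the RefSeq start of each gene (GRCm38.p6, all 7 genes matched), both strands were searched for the H1 box (AAACACA), for the CCAAT box (CCAAT) and for TATA-like letters (TATANA). Of 32851 promoters in the same table, 6.25% hold the first, 33.8% the second, 22.6% the third and 0.667% all 3. H1f2, H1f3, H1f4 and H1f5 hold all 3, with the H1 box first base 112, 122, 115 and 117 bases before the start. H1f1 holds CCAAT and TATANA, and H1f0 and H1f10 hold none of the 3. Shown next, up to the base before the start, are the promoter of H1f2, those of H1f4 and H1f5, which hold the same motifs but few reads, and that of H1f0. Capitals mark matches on the strand printed, and TATANA matches overlap each other. Matches on the opposite strand are not marked: H1f5 has such a CCAAT with its first base 66 bases before the start, and H1f2, H1f4 and H1f5 have TATANA matches on that strand that overlap the marked ones.

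H1f2, chr13:23738685-23738806, + strand: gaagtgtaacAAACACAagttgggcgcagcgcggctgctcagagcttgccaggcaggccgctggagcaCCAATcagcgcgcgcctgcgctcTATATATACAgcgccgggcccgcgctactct

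H1f4, chr13:23622559-23622683, - strand: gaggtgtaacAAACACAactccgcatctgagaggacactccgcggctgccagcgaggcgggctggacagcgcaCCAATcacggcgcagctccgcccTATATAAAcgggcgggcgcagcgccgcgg

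H1f5, chr13:21780626-21780752, - strand: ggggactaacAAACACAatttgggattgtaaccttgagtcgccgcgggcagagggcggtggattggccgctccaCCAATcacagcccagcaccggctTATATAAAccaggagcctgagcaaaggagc

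H1f0, chr15:79028072-79028211, + strand: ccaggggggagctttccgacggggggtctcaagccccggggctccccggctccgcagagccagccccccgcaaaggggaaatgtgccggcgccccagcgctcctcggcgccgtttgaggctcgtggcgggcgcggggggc

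In the lines for H1f2, H1f4 and H1f5 the capitals stand in the same order and at close to the same spacing, although the genes had 3511, 99 and 2 reads. The H1f0 line has none, and G and C make up 74.4% of its 250 bases, against 50.4% in H1f2, 52.4% in H1f4 and 48.4% in H1f5. A match is a match of letters only, not a measured binding site.

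H1f0, the replacement subtype, had the most reads of the family in every library and rose in both mutants under the authors' scaling. WT replicates 1 to 3 had 1344, 1246 and 1373 normalized counts, Snd1_KI 1968, 1984 and 1824, and S6k2_RK 1753, 1749 and 1821. Every mutant library lay above every WT library. With each mutant taken alone, 14.1% of all genes tested had this pattern in Snd1_KI and 14.7% in S6k2_RK. The share of genes with it in both was not counted. The group means were 1321 ± 66.6 in WT, 1926 ± 88.0 in Snd1_KI and 1774 ± 40.7 in S6k2_RK (SD, n = 3). The log2 fold change against WT was 0.54 ± 0.092 in Snd1_KI (SE, limma adjusted p = 0.00203) and 0.43 ± 0.092 in S6k2_RK (limma adjusted p = 0.00566). Both calls held whichever library was left out (adjusted p up to 0.0181 and 0.0292). They did not hold when totals were made equal: the log2 fold change was then 0.26 in Snd1_KI (adjusted p = 0.0857) and -0.09, the opposite direction, in S6k2_RK (adjusted p = 0.418).

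The scaling bears on these genes because the median gene shifted by -0.28 in Snd1_KI and by -0.51 in S6k2_RK when totals were made equal. H1f0 had 105, 95.4 and 104 RPM in WT, 127, 122 and 115 in Snd1_KI, and 105, 92.6 and 88.4 in S6k2_RK. On that scale Snd1_KI still lay above WT, while S6k2_RK overlapped it. The summed level of 7 acinar markers, among them the digestive enzymes Cpa1 and Cel, moved with the groups, from 2951830 to 3100110 normalized counts in WT, 3580330 to 3878610 in Snd1_KI and 3942650 to 4735280 in S6k2_RK. The part of these abundant transcripts in the totals was not tested.

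**Figure D2:**
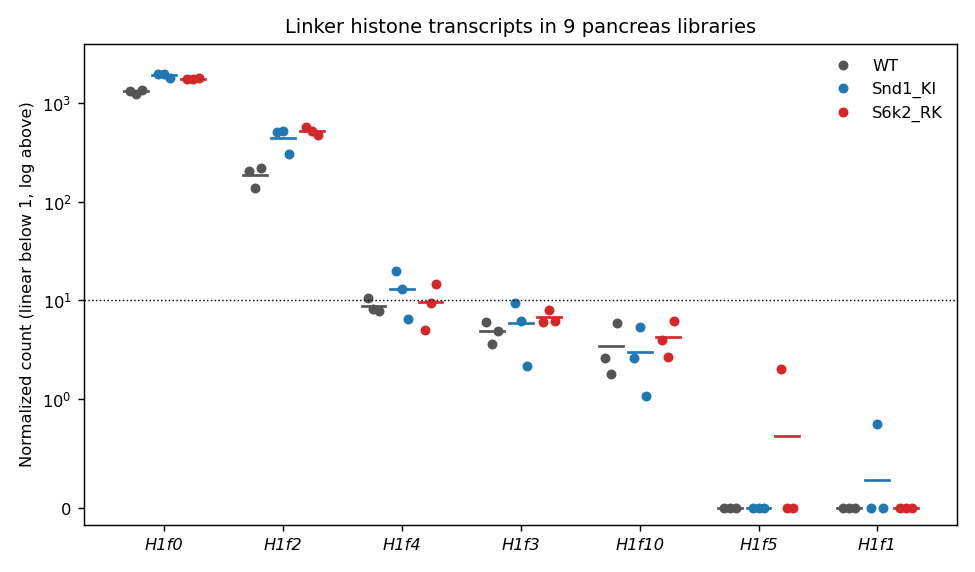
Normalized counts (y axis, linear below 1 and logarithmic above) of the 7 linker histone genes in the 9 libraries; points are libraries, bars group means, and the dotted line is the mean of 10 that a test required. For H1f0 and H1f2 the WT libraries lie below all mutant libraries. With each mutant taken alone, this holds for 14.1% (Snd1_KI) and 14.7% (S6k2_RK) of all genes tested. The other 5 genes stay under 20 in every library.

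H1f2, the cluster subtype with the read-through model and poly(A) signal described with its stem-loop, had the largest difference of the family. That difference is what led to the family being looked at. WT replicates 1 to 3 had 205, 139 and 220 normalized counts, Snd1_KI 516, 520 and 308, and S6k2_RK 571, 518 and 477. All 6 mutant libraries lay above the 3 WT libraries, and Snd1_KI replicate 3 was the lowest of the mutants. The means were 188 ± 43.4 in WT, 448 ± 121 in Snd1_KI and 522 ± 46.9 in S6k2_RK (SD, n = 3), which are ratios of 2.38 and 2.78. The log2 difference from WT was 1.24 ± 0.19 in Snd1_KI and 1.49 ± 0.19 in S6k2_RK (SE), given without a test. Over the fits that left out 1 library the first ranged from 1.03 (without WT replicate 2) to 1.48 (without Snd1_KI replicate 3), and the second from 1.29 (without WT replicate 2) to 1.62 (without WT replicate 3).

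H1f2 was higher in the mutants under the authors' scaling and at equal totals. In the second case the log2 differences were 0.95 and 0.97, and H1f2 had 16.1, 10.6 and 16.6 RPM in WT, 33.3, 31.9 and 19.4 in Snd1_KI, and 34.1, 27.4 and 23.2 in S6k2_RK. The genes tested give the background: 0.527% and 0.644% of 11953 lay more than 1 above WT on the log2 scale in Snd1_KI and S6k2_RK. With each mutant taken alone, 14.1% and 14.7% had all libraries of that mutant above all WT libraries. Nothing is read from H1f2 against these shares, since its difference led to the family being described. In whole tissue, fewer cells of a type and less RNA per cell cannot be told apart, for this and every other gene given here.

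H1f4, another cluster subtype, sat at the edge of the test. Its normalized counts were 10.5, 8.11 and 7.87 in WT, 19.9, 13.2 and 6.42 in Snd1_KI, and 5.0, 9.39 and 14.8 in S6k2_RK, from 5 to 23 reads per library. The groups overlapped. The log2 fold change was 0.42 ± 0.52 in Snd1_KI (95% interval -0.68 to 1.51, limma adjusted p = 0.711) and 0.03 ± 0.52 in S6k2_RK (-1.06 to 1.12, limma adjusted p = 0.979). A change of the size seen in H1f2 lies inside the first interval and outside the second. It is not excluded in S6k2_RK, which had 5 to 12 reads per library on a scale that understates changes of low genes. Without S6k2_RK replicate 1 the log2 fold change in S6k2_RK was 0.40 ± 0.53. Its sign turned under several alternatives (lowest value -0.44, at equal totals).

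The other members were too low for a test. H1f3, a cluster subtype whose model has the longest extension, had 6.11, 3.60 and 4.92 normalized counts in WT, 9.52, 6.20 and 2.14 in Snd1_KI, and 6.0, 8.05 and 6.18 in S6k2_RK. H1f10, the second replacement subtype, had 2.62, 1.80 and 5.90, then 2.60, 5.42 and 1.07, then 4.0, 2.68 and 6.18 in the same order of groups. The groups overlapped in both genes, at 1 to 11 reads per library, and no difference is read from so few. H1f1 and H1f5, at 1 and 2 reads in all, were not told apart from 0 at this depth.

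Counting H1f2 out, H1f0 was the 1 called gene of the 6 members in each mutant against WT, and 2 of the 6, H1f0 and H1f4, could be tested. Over all genes tested limma called 5.61% in Snd1_KI (287 higher, or 2.4%, and 383 lower) and 12% in S6k2_RK (621 higher, or 5.2%, and 816 lower) at an adjusted p below 0.05. That split depended on the settings. With equal totals 45 were higher and 1581 lower in Snd1_KI and 37 and 5954 in S6k2_RK, and among genes with a mean of at least 50 the split was 243 and 166 in Snd1_KI and 595 and 446 in S6k2_RK. Leaving out 1 library gave between 222 and 824 calls in Snd1_KI and between 748 and 1864 in S6k2_RK.

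Between the mutants no member tested passed the threshold. The log2 fold change of S6k2_RK against Snd1_KI was -0.12 ± 0.092 for H1f0 (95% interval -0.31 to 0.08, limma adjusted p = 0.705), although the 3 S6k2_RK libraries lay just below the 3 Snd1_KI libraries, as one group or the other did without overlap in 15.2% of all genes. At equal totals the H1f0 difference was larger, -0.35 ± 0.099 (adjusted p = 0.0845), relative to a median gene that then shifted by -0.23, and those of H1f2 and H1f4 were 0.02 and -0.60. H1f2 gave 0.26 ± 0.19 (-0.14 to 0.65, limma adjusted p = 0.680), with overlapping libraries, and 0.01 without Snd1_KI replicate 3. H1f4 gave -0.38 ± 0.52 (-1.48 to 0.71, limma adjusted p = 0.850), and -0.04 and -0.02 without Snd1_KI replicate 1 and S6k2_RK replicate 1. Of the 3 members tested 0 were called by limma, edgeR or DESeq2, and 0 had an unadjusted limma p under 0.05, against 0.117% called and 10.1% at that unadjusted p over all genes.

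**Figure D3:**
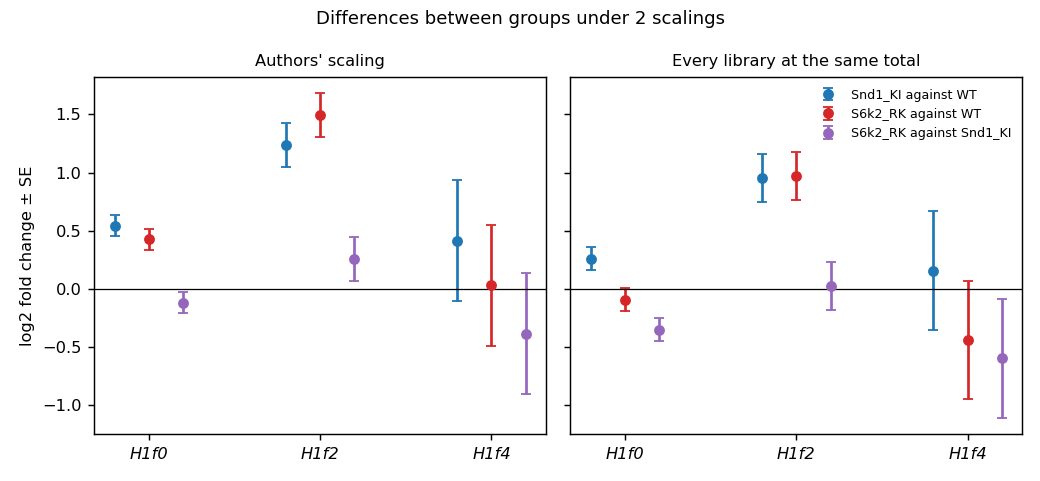
Log2 fold change ± SE (y axis) of H1f0, H1f2 and H1f4 in the 3 comparisons, under the authors' scaling at the left and with equal library totals at the right. H1f2 stays near 1 or above against WT in both panels, while H1f0 of S6k2_RK against WT goes from 0.43 to -0.09.

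The make-up of the family does not depend on the scaling between libraries. H1f2 had 15.3, 11.1 and 16 reads per 100 reads of H1f0 in WT, 26.2, 26.2 and 16.9 in Snd1_KI, and 32.6, 29.6 and 26.2 in S6k2_RK. Every mutant library was above every WT library, Snd1_KI replicate 3 by less than 1 read per 100. Since H1f2 chose the family, no test was made of this ratio.

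Per kilobase of GENCODE transcript, which allows genes to be compared, the level of H1f0 was 643, 937 and 863 normalized counts in WT, Snd1_KI and S6k2_RK, and that of H1f2 was 121, 287 and 335. H1f0 thus made up 83.5% ± 2.60 of the summed linker histone level in WT, 76.2% ± 4.56 in Snd1_KI and 71.5% ± 2.02 in S6k2_RK (SD, n = 3). H1f2 made up 15.5% ± 2.46, 23.0% ± 4.20 and 27.7% ± 2.21. H1f4 was next at 0.593% ± 0.0930 in WT, H1f10 had 0.358% ± 0.205 and H1f3 0.0846% ± 0.0175, so H1f4 and H1f10 differed by about the spread between libraries. These shares rest on the length used: RefSeq gives H1f2 725 bases where GENCODE gives 1560, and with RefSeq lengths the H1f2 share was 30.0%, 41.0% and 47.3%. For H1f3, RefSeq gives 776 bases where GENCODE gives 7425, and its WT share was then 0.728% against 0.368% for H1f10, the opposite order of these low genes. In S6k2_RK replicate 1 the RefSeq lengths put H1f2 (50.1%) above H1f0 (48.6%). The order of the groups in the shares of H1f0 and H1f2 was the same with both lengths. It could hardly differ, since a gene's length is the same in every library.

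**Figure D4:**
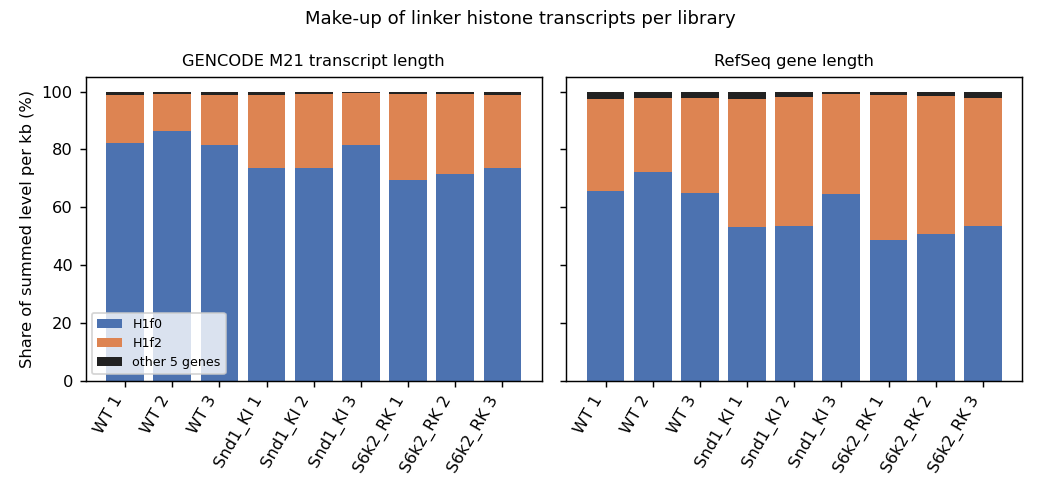
Share of each gene in the summed linker histone level per kilobase (y axis, %) in the 9 libraries, with GENCODE transcript lengths at the left and RefSeq gene lengths at the right. H1f0 and H1f2 fill nearly all of every bar, and the H1f2 part is smallest in WT replicate 2 and largest in S6k2_RK replicate 1.

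Core histone genes of the replication-dependent kind, whose mRNAs share the stem-loop ending, were low as well. None was called in either mutant, against 5.61% and 12% of all genes tested in Snd1_KI and S6k2_RK. Of the 60 genes measured, 6 had a mean of at least 10 and 22 had no read. Limma, edgeR and DESeq2 each called 0 of the 6 in either mutant against WT, with 1 at an unadjusted limma p under 0.05 in Snd1_KI and 0 in S6k2_RK, and with a median log2 fold change of 0.15 in Snd1_KI and 0.16 in S6k2_RK against 0.0027 and 0.0024 over all genes. H2bc4, an H2B gene and the highest of the list, had 200 ± 15, 228 ± 29.1 and 234 ± 26.3 normalized counts in WT, Snd1_KI and S6k2_RK, with log2 fold changes of 0.19 ± 0.14 (limma adjusted p = 0.487) and 0.23 ± 0.14 (0.312) that turned to -0.10 and -0.29 at equal totals. H2bc6, which overlaps H1f4, had 9.65 ± 3.78, 22.5 ± 3.95 and 15.1 ± 3.29, with 1.18 ± 0.39 (limma adjusted p = 0.0896) and 0.63 ± 0.39 (0.318).

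Among the 59 core histone genes with a coding model, 17 have a model that runs more than 100 bases past the stem-loop letters, and 1 of these had no read. Of the 21 whose model ends within 100 bases of them 9 had no read, and of the 21 with no match 11 had none. H2bc4 is in the last class. Within 100 kb of H1f2, 2 of 25 annotated genes could be tested, H2bc4 and Hfe, an iron-regulating gene, and neither was called in any comparison. Within 100 kb of H1f0 on chromosome 15, 7 of 17 could be tested and 1 was called, the translation initiation factor gene Eif3l, with log2 fold changes of 0.38 ± 0.11 in Snd1_KI (limma adjusted p = 0.0430) and 0.49 ± 0.11 in S6k2_RK (0.00609). Over all genes tested 5.61% were called in Snd1_KI and 12% in S6k2_RK, so nothing about the neighbourhood is read from 1 call among 7 genes. The distance was chosen after the members' values were known.

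The replacement core histones, most of which, like H1f0, are made outside S phase, gave few calls, and these did not share 1 direction. All 9 were tested, with 1 higher and 1 lower in Snd1_KI and 1 higher in S6k2_RK. Over all genes tested 5.61% were called in Snd1_KI and 12% in S6k2_RK, so little is read about the class from these counts. H3f3b, a gene for histone H3.3, went from 1335 ± 50.6 to 1686 ± 137 in Snd1_KI (0.33 ± 0.096, limma adjusted p = 0.0489) and 1955 ± 89.7 in S6k2_RK (0.55 ± 0.096, limma adjusted p = 0.00114). H3f3a, which encodes the same protein, fell from 1194 ± 163 to 826 ± 22.2 in Snd1_KI (-0.52 ± 0.11, limma adjusted p = 0.0105) and had 952 ± 89.6 in S6k2_RK (-0.32 ± 0.11, limma adjusted p = 0.0701).

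Both H3f3b calls were lost at equal totals, where the log2 fold changes were 0.05 and 0.03. The Snd1_KI call sat at the threshold and was lost in 15 of 20 alternatives, among them edgeR (adjusted p = 0.0890), TMM scaling (0.0562) and a minimum mean of 50 (0.0613), and without any 1 of the WT or Snd1_KI libraries or S6k2_RK replicate 3 (up to 0.210). The H3f3a call was lost without WT replicate 2 (adjusted p = 0.0764), while the S6k2_RK difference passed without WT replicate 3 or S6k2_RK replicate 1 (0.0247 and 0.0429). H3.3 genes have many processed copies in the genome, so the division of their reads is uncertain. None of the other 7 genes of this list was called.

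**Figure D5:**
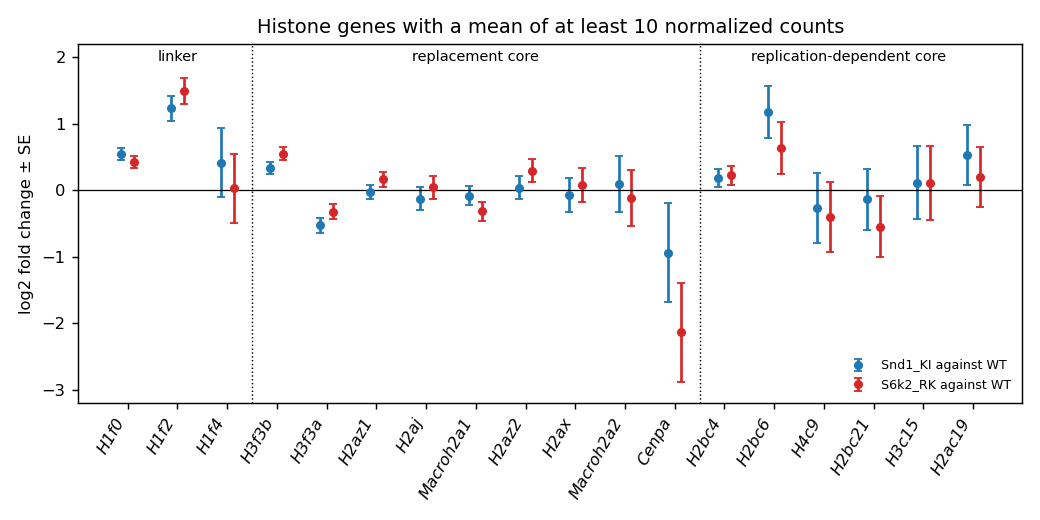
Log2 fold change ± SE (y axis) against WT of all histone genes tested, by class, under the authors' scaling. H1f2, whose difference led to the family being described, has the largest positive value in both mutants. In Snd1_KI it is close to H2bc6 (1.24 ± 0.19 against 1.18 ± 0.39). H3f3b and H3f3a lie on opposite sides of 0, and the replication-dependent core histones have wide errors apart from H2bc4.

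Genes that process or degrade stem-loop histone mRNAs gave few calls, where 5.61% and 12% of all genes tested were called in Snd1_KI and S6k2_RK. Of 19 tested, 0 were called by limma, edgeR or DESeq2 in Snd1_KI (1 at an unadjusted limma p under 0.05) and 1 was lower in S6k2_RK, with medians of -0.05 and -0.15. The gene was Srrt, which encodes ARS2, a partner of the cap-binding complex, with 220 ± 6.38 normalized counts in WT and 157 ± 26.4 in S6k2_RK (-0.50 ± 0.14, limma adjusted p = 0.0274); the call was lost in the fit of the compared groups alone (adjusted p = 0.0568) and without WT replicate 1 or 2 or S6k2_RK replicate 2 or 3 (up to 0.132). Sympk, which encodes the scaffold protein symplekin, gave 0.18 ± 0.13 in Snd1_KI (limma adjusted p = 0.466) and 0.12 ± 0.13 in S6k2_RK (0.608), both turning negative at equal totals, where it passed as lower in S6k2_RK (-0.40, adjusted p = 0.0199). Tut7, a uridylyltransferase, gave -0.17 ± 0.15 and -0.13 ± 0.15 (limma adjusted p = 0.548 and 0.615), and at equal totals also passed as lower in S6k2_RK (-0.65, adjusted p = 0.00529). In that setting the median gene shifted by -0.51 and 5954 of 11953 genes passed as lower in S6k2_RK, so passing does not set Sympk or Tut7 apart.

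No S phase or cell division gene was called higher in either mutant. Over all genes tested 2.4% were higher in Snd1_KI and 5.2% in S6k2_RK, so little is read from a list this short. Of 15 tested 1 was lower in Snd1_KI and 0 were called in S6k2_RK by limma, edgeR or DESeq2 (0 at an unadjusted limma p under 0.05), with medians of -0.03 and -0.05. The 25 listed genes summed to between 799 and 989 normalized counts in WT, 811 and 861 in Snd1_KI, and 748 and 986 in S6k2_RK, so the groups overlapped. Pcna, the sliding clamp of DNA polymerases, fell from 183 ± 25.0 to 128 ± 9.30 in Snd1_KI (-0.50 ± 0.14, limma adjusted p = 0.0486), a call lost with no filter on low counts (adjusted p = 0.0568) and without WT replicate 1 or 2, any Snd1_KI library or S6k2_RK replicate 3 (up to 0.229). In S6k2_RK Pcna had 155 ± 3.62 (limma adjusted p = 0.325), and it passed at equal totals (-0.75, adjusted p = 0.00196). There the median gene shifted by -0.51 and 5954 of 11953 genes passed as lower. Mcm2, of the replicative helicase, had 99.3 ± 15.5 in WT, 147 ± 17.6 in Snd1_KI (0.56 ± 0.18, limma adjusted p = 0.0743) and 118 ± 23.7 in S6k2_RK (0.24 ± 0.18, 0.425); without WT replicate 3 or S6k2_RK replicate 2 the first difference passed the threshold.

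Linker histone chaperones and other architectural chromatin proteins gave 1 lower gene of 19 tested in Snd1_KI and 2 in S6k2_RK, with medians of -0.07 and 0.06. Over all genes tested 3.2% were lower in Snd1_KI and 6.83% in S6k2_RK. Hmgb2, a high-mobility-group protein that bends DNA, fell from 148 ± 29.5 in WT to 67.2 ± 13.9 in Snd1_KI (-1.13 ± 0.23, limma adjusted p = 0.00649) and 67.8 ± 20.5 in S6k2_RK (-1.15 ± 0.23, limma adjusted p = 0.00318). The first of these calls was lost without WT replicate 2 (adjusted p = 0.0610). Nasp, a chaperone of H1 and H3, fell from 78.4 ± 13.6 to 47.5 ± 13.3 in S6k2_RK (-0.74 ± 0.23, limma adjusted p = 0.0407). This call was lost in 11 of 20 alternatives, among them DESeq2 (adjusted p = 0.0511), the fit of the compared groups alone (0.0778) and no filter on low counts (0.0610), and without any 1 library other than WT replicate 3 or S6k2_RK replicate 1 (up to 0.174), and the log2 fold change was -0.48 without S6k2_RK replicate 2. Prothymosin alpha (Ptma, -0.02 ± 0.093) and nucleophosmin (Npm1, -0.10 ± 0.094), acidic binders of histones, were not called in Snd1_KI (limma adjusted p = 0.923 and 0.606), and passed as lower at equal totals. Their values were then -0.31 and -0.38, while the median gene shifted by -0.28 and 1581 genes passed as lower in Snd1_KI. Between the mutants 0 genes of these 5 lists of related genes were called by limma, edgeR or DESeq2, with 0 to 2 genes per list at an unadjusted limma p under 0.05.

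Markers of some other cells moved with the groups. Over all genes tested 2.4% were called higher and 3.2% lower in Snd1_KI, and 5.2% and 6.83% in S6k2_RK. Little is therefore read from single calls in lists this short. T-cell markers were lower in both mutants, 8 of 8, and their summed level was 256, 755 and 569 normalized counts in WT replicates 1 to 3, 64.9, 28.7 and 28.9 in Snd1_KI, and 28.0, 32.2 and 29.7 in S6k2_RK. B-cell markers were lower for 6 of 7 genes in Snd1_KI and 7 of 7 in S6k2_RK, with sums of 829 to 1461 in WT, 434 to 586 in Snd1_KI and 150 to 769 in S6k2_RK. Ductal markers had 2 of 6 genes higher in Snd1_KI and 1 in S6k2_RK, with sums of 1498 to 1505 in WT, 2219 to 2368 in Snd1_KI and 2247 to 2560 in S6k2_RK. Of 7 acinar markers 1 was lower in Snd1_KI, and 2 were higher and 1 lower in S6k2_RK. Macrophage markers had 1 of 5 lower in Snd1_KI and 4 of 5 in S6k2_RK, endothelial markers 2 of 4 in each, and adipocyte markers 4 of 4 in S6k2_RK by limma (2 by edgeR and 0 by DESeq2). Adipocyte markers in Snd1_KI, and islet and fibroblast markers in both mutants, had 0 calls by limma, edgeR or DESeq2, with 1 adipocyte, 5 islet and 2 fibroblast genes at an unadjusted limma p under 0.05 in Snd1_KI and 0 islet or fibroblast genes in S6k2_RK. No marker of any list was at 0 in all libraries. The part of any of these cells in the levels of H1f0, H1f2, Hmgb2 or Pcna was not tested.

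Among 8001 genes with a mean of at least 50, those whose pattern over the 9 libraries was most like H1f2 were Slc12a8, Slc30a2, Thsd4, Leng1 and Zkscan17, with root mean square log2 differences from 0.24 to 0.34 after centring each gene. Slc30a2 encodes a zinc transporter. Leng1 was among them although its libraries overlapped between WT and Snd1_KI. Most like H1f0 were Kcnq1, Cldn3, Akt1, Tmbim6 and Cdc42bpg, at 0.055 to 0.086. Likeness was measured on the same libraries as the differences already given, so it adds no separate evidence of them.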

How the data were processed

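The authors deposited 1 table of normalized counts for 46078 genes and 9 libraries, a signal in which each value is a read count divided by 1 size factor per library. Per the labels' protocols the libraries were polyA-selected and strand-specific (NEBNext Ultra II Directional, paired-end); DESeq2, GRCm38 and mm10 are named in the submitters' processing notes. The aligner, counter, strand setting and annotation release are not given in the sources used here. Divided by the smallest step of its library, 100% of the values were whole to a tolerance of 1e-06, which gave back 13461427 to 21034501 reads. The step of S6k2_RK replicate 1 was close to 1 (0.999635), and the edgeR test was also run without that library. No libraries were copies of each other (chi-square per degree of freedom 8.16 to 22.2 within groups).

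Genes with a mean of at least 10 (11953) were tested with limma 3.58.1 (R 4.3.3) on log2(normalized count + 1), with a mean-variance trend, all 9 libraries in 1 fit and Benjamini-Hochberg adjustment over all genes, called below 0.05, two-sided. This scale understates changes of low genes. The script was tested on simulated data. Alternatives used other pseudocounts, filters and scalings, a fit of the compared groups alone, a replicate block, the recovered reads in DESeq2 1.42.0 and edgeR 4.0.16, and each library left out; edgeR without S6k2_RK replicate 1 and RefSeq lengths were chosen after seeing the data.

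Members and gene lists were chosen with earlier results of these data known. Named are the members, up to 4 called genes per list (the 2 highest where fewer than 2 were called) and the 5 genes most like H1f0 and H1f2; between the mutants only members are named. Models and stem-loops come from GENCODE release 21 and promoters from RefSeq GRCm38.p6; proteins were not used here. With 3 animals per group and this depth, intervals and floors for single counts cover counting error only.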

Additional observations from a re-analysis of the deposited data

How the results depend on the processing

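The members were called alike under most settings, the exception being the scaling. At equal library totals the number of linker histone genes called, H1f2 not counted, went from 1 to 0 in each mutant against WT, H1f0 in S6k2_RK turned to -0.0934 and H1f4 to -0.44; H1f4 in S6k2_RK also took -0.02, -0.04, -0.00018 and -0.30 without WT replicates 2 and 3 and S6k2_RK replicates 2 and 3 (0.40 without S6k2_RK replicate 1, the highest). Other directions that turned at equal totals were H2bc4 (-0.10 in Snd1_KI, -0.29 in S6k2_RK), Sympk (-0.10 and -0.40) and Mcm2 in S6k2_RK (-0.28); those that turned without 1 library were Ptma in Snd1_KI (0.0189 and 0.0177 without WT replicate 3 and Snd1_KI replicate 3, -0.0646 without WT replicate 2, the lowest) and Tut7 in S6k2_RK (0.0163 without S6k2_RK replicate 3). Genes called in Snd1_KI against WT numbered 670, 409 at a minimum mean of 50, 1626 at equal totals, and 420, 222, 407, 293 and 281 without WT replicates 1 and 2 and Snd1_KI replicates 1, 2 and 3 (222 to 824 over all libraries). In S6k2_RK they numbered 1437, 5991 at equal totals, and 893, 835 and 748 without WT replicates 1 and 2 and S6k2_RK replicate 3 (748 to 1864). Between the mutants 14 were called, 35 at equal totals, 55 by DESeq2, 70 by edgeR without S6k2_RK replicate 1, and 4 to 85 leaving out 1 library: 22 without WT replicate 2, 8, 4 and 7 without Snd1_KI replicates 1, 2 and 3, and 85, 35 and 6 without S6k2_RK replicates 1, 2 and 3. The edgeR test on recovered reads, 100% of which came out whole, called 802, 1380 and 19 genes. The share of H1f0 per kilobase was 67.6%, 57.2% and 51.0% in WT, Snd1_KI and S6k2_RK with RefSeq lengths, and 86.7% in WT and 76.6% in S6k2_RK with no length correction; that of H1f2 was 30.0%, 41.0% and 47.3%, and 12.2%, 18.5% and 22.5%. Of the log2 fold changes recomputed under all settings 543 stayed the same, 43 lost the threshold, 12 gained it, 14 turned and 3 untested ones moved. Staying the same meant keeping the direction and the side of the threshold. For the untested H1f2 differences from WT it meant keeping the direction with a shift smaller than the residual SD of the fit. Apart from equal totals, where the scaling itself shifts the median gene, and left-out libraries, the cause was not tested.

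The replicate numbers did not pair the animals: deviations of libraries with the same number correlated at -0.0781 to 0.0454. With the replicate number as a block, the calls numbered 589 for Snd1_KI against WT, 1304 for S6k2_RK against WT and 11 for the mutants against each other, with H1f0 called in both mutants and H1f4 in neither. The calls of H3f3b and Pcna in Snd1_KI (adjusted p = 0.0748 and 0.0717) and of Nasp in S6k2_RK (0.0557) were not made in that fit.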
